A study of Mus musculus with 16 samples.

Results

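Tet1, Tet2 and Tet3 are the 3 mouse genes of the ten-eleven translocation (Tet) dioxygenases, and they were examined among 21951 protein-coding genes for the CpG methylation of their own DNA in mature (MII) mouse oocytes. The members were chosen by name. They comprised the GRCm38 gene body of each gene, the CpG-rich intragenic island of Tet3 taken apart from the remainder of that gene, and a 2 kb window centred on each of their 25 distinct annotated transcription starts among 93526 such windows. Bisulfite libraries were made by post-bisulfite adapter tagging (PBAT) from pools of MII oocytes of C57BL/6J X CBA/Ca F1 females. The 16 libraries formed 4 groups. In IFC (n = 4), oocytes had grown in preantral follicles cultured in vitro, with recombinant FSH and then an hCG and EGF stimulus, and the labels give an age of 23 days; the follicles had been taken from younger females, so that this is not the age of the donors. In SO (n = 5), prepubertal females of 23 days had been superovulated with eCG and hCG. In SOA (n = 4), adult females of 10 weeks had been superovulated with the same hormones at a higher dose, and in IV (n = 3), adult females of 10 weeks ovulated naturally without hormones. IFC and SO therefore differ in the place of growth as well as in stimulation, and SO and SOA differ in hormone dose as well as in age. Each library was made from a separate pool of oocytes, so that its values are averages over the pool.

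Tet enzymes oxidise 5-methylcytosine to 5-hydroxymethylcytosine and further to forms that base excision repair can replace with unmodified cytosine. Tet3 is the member known for high expression in the oocyte and for oxidising the paternal genome of the zygote, Tet1 is best known from embryonic stem cells and primordial germ cells, and Tet2 from blood cell formation. In growing oocytes, DNA methylation is laid down mainly across transcribed gene bodies, and most CpG-rich promoters remain unmethylated. Bisulfite treatment does not separate 5-methylcytosine from 5-hydroxymethylcytosine, so that "methylation" below means both.

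Each library held 5218053 to 23065411 CpG calls, and at 65.5% to 91.5% of covered positions there was 1 call. A call is one read's verdict, methylated or unmethylated, at one cytosine of a CpG on one strand. All 4 IFC, 2 SO and 3 SOA libraries were below 10000000 calls, and all 3 IV libraries were above, so that depth and group are partly aligned. The oocyte identity of the libraries was checked at imprinted genes. The start window with the most CpGs was methylated, with medians over libraries of 92.9% to 96.4%, for 8 of the 9 listed genes that carry maternal methylation, and the window of the remaining one, Grb10, was at a median of 2.63%. Windows were chosen by their number of CpGs and need not cover the imprinted region of a gene, so that this value does not show a missing imprint. H19 and Meg3, which are not methylated in oocytes, had medians of 0% and 3.21%. The library IV1 stood apart: in tiles under 20% methylated in the other groups its mean was 15.6%, against 6.67% to 11.0% in the remaining 15 libraries, and in tiles over 80% its mean was 88.5%, the lowest of the 16. Among the 8 methylated imprinted windows, IV1 was below the median over libraries in all but that of Kcnq1ot1. It was the lowest library at Nnat (72.8%), Peg3 (78.2%) and Plagl1 (89.8%). At Peg10, Snrpn and Mest it was at 64.0%, 83.3% and 85.0%, beside medians of 92.9%, 93.75% and 94.0%. The lowest library was IV2 at Mest and Kcnq1ot1, SO1 at Peg10, and SO4 at Snrpn and Zrsr1. IV1 was at 94.7% at Zrsr1 (median 95.9%), at 96.6% at Kcnq1ot1 (median 96.4%) and at 0% at Meg3 (median 3.21%). Calls that involve IV are therefore also given without IV1, and the group values of IV include it unless stated.

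All 3 genes lie on the minus strand. Tet1 (ENSMUSG00000047146.17) spans chr10:62804570-62908996 with 1214 reference CpGs, Tet2 (ENSMUSG00000040943.12) spans chr3:133463679-133545139 with 778, and Tet3 (ENSMUSG00000034832.15) spans chr6:83362373-83459084 with 1525. The Tet3 island, on chromosome 6, is 1921 bases long and holds 173 CpGs. It lies 1652 to 3572 bases inside the gene, within intron 1 of transcript Tet3-204, contains exon 1 of transcript Tet3-203 (chr6:83456289-83456392) and reaches into intron 1 of that transcript. Other annotated genes overlap the members: Gm42567 runs antisense over the 5′ end of Tet2, B230319C09Rik runs antisense inside Tet3, and 5430434F05Rik and Mir6374 in Tet3 and Gm48353 and Gm26479 in Tet1 are on the same strand.

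The sequences below show the start regions that the levels turn on, because they differ in CpG content and, as described further on, in methylation. Each covers 250 bases before and 50 after a transcription start on the minus strand, written 5′ to 3′, with every CG dinucleotide in capitals. The first 3 are the RefSeq promoters (GRCm38.p6) of the Tet genes, all 3 of which were matched by symbol, at chr10:62887275-62887574, chr3:133544341-133544640 and chr6:83441629-83441928. The fourth is read from the GRCm38.p6 genome at chr6:83456343-83456642, around the Tet3-203 start inside the island.
Tet1: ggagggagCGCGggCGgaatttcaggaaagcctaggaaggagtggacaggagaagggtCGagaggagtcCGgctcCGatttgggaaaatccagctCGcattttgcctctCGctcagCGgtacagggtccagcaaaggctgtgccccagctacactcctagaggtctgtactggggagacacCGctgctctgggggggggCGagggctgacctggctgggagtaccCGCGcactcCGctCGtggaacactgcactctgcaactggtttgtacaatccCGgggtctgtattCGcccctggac
Tet2: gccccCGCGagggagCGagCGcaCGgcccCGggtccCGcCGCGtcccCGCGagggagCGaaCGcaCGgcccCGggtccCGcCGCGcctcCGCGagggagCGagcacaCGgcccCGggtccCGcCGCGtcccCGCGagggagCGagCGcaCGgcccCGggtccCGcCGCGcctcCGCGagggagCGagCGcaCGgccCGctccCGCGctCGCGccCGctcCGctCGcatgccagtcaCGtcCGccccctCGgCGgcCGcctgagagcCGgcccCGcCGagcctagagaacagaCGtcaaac
Tet3: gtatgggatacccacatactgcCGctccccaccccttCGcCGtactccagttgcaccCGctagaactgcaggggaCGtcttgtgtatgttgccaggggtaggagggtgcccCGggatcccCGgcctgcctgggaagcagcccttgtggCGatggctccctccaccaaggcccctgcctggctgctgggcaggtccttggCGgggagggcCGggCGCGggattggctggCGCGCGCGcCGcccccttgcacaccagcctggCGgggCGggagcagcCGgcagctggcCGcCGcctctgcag
Tet3-203: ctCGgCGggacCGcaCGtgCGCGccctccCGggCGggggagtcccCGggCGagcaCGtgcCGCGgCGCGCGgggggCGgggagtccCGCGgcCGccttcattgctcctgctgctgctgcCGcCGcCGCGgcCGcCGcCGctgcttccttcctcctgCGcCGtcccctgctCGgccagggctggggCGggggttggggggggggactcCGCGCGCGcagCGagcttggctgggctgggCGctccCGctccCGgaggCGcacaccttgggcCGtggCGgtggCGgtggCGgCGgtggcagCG
The Tet1 sequence holds 17 CG dinucleotides, Tet2 holds 57, Tet3 holds 22 and the Tet3-203 start holds 46. Of 32851 RefSeq promoters of this length, 94.6% hold at least 1 CG and the median is 7. At least as many CGs as in Tet1 were found in 31.4% of them, as in Tet3 in 23.1%, as at the Tet3-203 start in 1.65% and as in Tet2 in 0.152%.

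In these 4 stretches of 300 bases, the calls of the libraries of a group were merged, since single libraries had few. Not every library had calls in each stretch. The Tet1 promoter had 1 methylated call of 72 in SO (1.39%, 5 libraries) and 0 of 33 in IV (3 libraries), which allows a share of up to 9.09%. It had 0 of 18 in SOA (2 libraries) and 0 of 2 in IFC (1 library). The Tet2 promoter, the richest in CG, was at 4.35% in IFC, 8.06% in SO, 15.6% in SOA, against 11.3% in IV, of 23 to 147 calls. Those calls came from 2 IFC, 5 SO, 3 SOA and 3 IV libraries. The RefSeq promoter of Tet3 was at 95.2% in IFC, 94.9% in SO, 89.7% in SOA, against 92.9% in IV, of 21 to 59 calls. There, 3 IFC, 5 SO, 3 SOA and 3 IV libraries had calls. The Tet3-203 promoter was at 63.2% in IFC (95% Wilson interval 54.2% to 71.4%, 117 calls), 98.1% in SO (90.2% to 99.7%, 54 calls) and 78.7% in IV (70.1% to 85.4%, 108 calls), with 6 calls in SOA, all methylated. The calls of the Tet3-203 promoter came from 3 IFC, 3 SO, 1 SOA and 3 IV libraries. Without IV1, the IV value of this promoter was 93.5% (82.5% to 97.8%, 46 calls), and that of the Tet2 promoter was 7.69% (39 calls). Wilson intervals here and below cover counting error only, and calls of the same molecule are not independent.

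Across the gene bodies, Tet1 was almost unmethylated, Tet2 was partly methylated and Tet3 was almost fully methylated, in every library. Over the 16 libraries, Tet1 was methylated at 4.34% ± 2.38 (SD, n = 16), Tet2 at 68.8% ± 4.95 and Tet3 outside its island at 92.6% ± 1.85. These are means over covered positions, of which a library had 281 to 977 in Tet1, 149 to 561 in Tet2 and 297 to 1008 in Tet3. Within a library, Tet1 minus Tet3 was -92.5 to -77.3 percentage points, Tet1 minus Tet2 was -73.1 to -55.7 points, and Tet2 minus Tet3 was -34.2 to -14.8 points. Each difference had the same sign in 16 of 16 libraries, and a two-sided sign-flip permutation test over the 16 libraries gave p = 3.05e-05 for each, the smallest value that 16 libraries allow (4.07e-05 after adjustment over 4 such differences). The fourth difference, the Tet3 island minus the remainder of Tet3, was -4.51 ± 14.6 points (n = 15), below 0 in 5 of 15 libraries, and did not pass (sign-flip permutation p = 0.267). Among 18209 protein-coding gene bodies measured in every library, Tet1 stood at percentiles 4.50 to 15.5, Tet2 at 52.6 to 81.0 and Tet3 at 91.2 to 98.5, where 26.6% of gene bodies had a mean under 20% and 17.9% a mean over 80%. Tet3 was ranked here without its island, while the other gene bodies were whole.

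**Figure D1:**
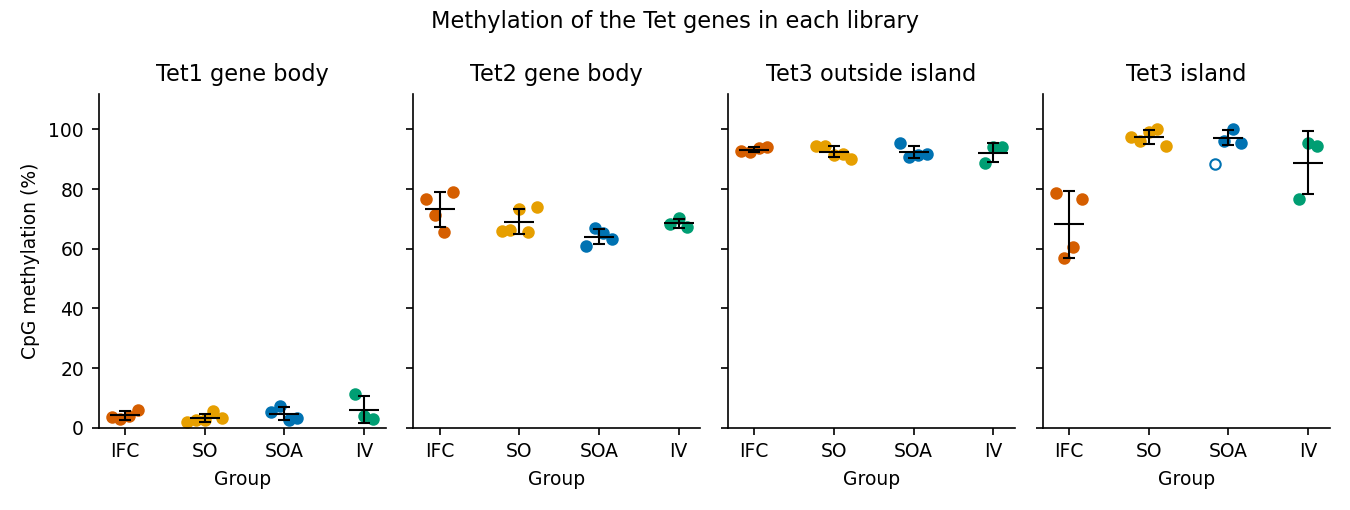
CpG methylation (%, mean over covered positions) of the Tet1 and Tet2 gene bodies, of Tet3 outside its island and of the Tet3 island in each library, by group. Points are libraries, the cross bar is the group mean with SD, and the open point is SOA1, whose island had 17 covered positions and was not used in the mean; the 4 IFC libraries lie at 56.7% to 78.6% in the island, below every SO and SOA library, while the gene bodies overlap between groups for Tet1 and Tet3.

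Tet1 was low along its whole length in all groups. The IFC libraries were at 3.56%, 2.98%, 3.87% and 6.14%, and the SO libraries at 1.97%, 2.79%, 2.63%, 5.57% and 3.15%. The SOA libraries were at 5.39%, 7.47%, 2.71% and 3.13%, and the IV libraries at 11.3%, 4.01% and 2.86%. The groups overlapped throughout, and the highest value of all belonged to IV1. Its 13 tiles of 100 CpGs had means over all libraries of 1.44% to 7.74%, so that none reached 20%. The unmethylated stretch extended beyond the gene: the 5 kb before its 5′ end were at 3.02% ± 2.56 and the 5 kb after its 3′ end at 7.92% ± 9.09 (n = 16). The regions from 5 to 50 kb away were at 64.2% ± 6.64 and 62.1% ± 6.97, averages that mix low and high 5 kb bins. In bins chosen after their values were seen and not tested, group means were 12.1% to 18.8% before the gene (chr10:62918997-62923996). They were 13.1% to 18.9% after it (chr10:62788997-62793996). The next bins outward were at 92.4% to 99.0% and at 90.2% to 97.5%. Exons (4.64% ± 3.01) and introns (4.23% ± 2.36) were alike within their spread, with exons higher in 10 of 16 libraries.

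Tet2 was methylated over most of its body, around a low 5′ end and low segments inside the gene. The IFC libraries were at 76.6%, 71.1%, 65.8% and 79.1%, and the SO libraries at 66.0%, 66.4%, 73.4%, 65.6% and 74.0%. The SOA libraries were at 61.0%, 66.8%, 65.1% and 63.3%, and the IV libraries at 68.4%, 70.2% and 67.2%. Of the 4 SOA libraries, 3 lay below every library of the other groups, and every IV library lay above every SOA library. Of its 9 tiles, 1 had a mean under 20%, 3 a mean over 80%, and 5 lay between. In segments chosen after their values were seen and not tested, from 30 to 55 kb inside the gene the group means were 91.8% to 94.5%, whereas from 10 to 15 kb they were 18.4% ± 11.6 in IFC, 19.5% ± 10.9 in SO, 5.70% ± 7.63 in SOA, against 28.4% ± 4.67 in IV. The methylated segment ended with the gene, since the 5 to 50 kb after its 3′ end were at 15.6% ± 4.08 (n = 16).

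Tet3, the oocyte member of the family, was methylated almost completely outside its 5′ end. The IFC libraries were at 92.8%, 92.3%, 93.7% and 94.0%, and the SO libraries at 94.5%, 94.3%, 91.5%, 91.9% and 90.1%. The SOA libraries were at 95.3%, 90.8%, 91.3% and 91.8%, and the IV libraries at 88.6%, 94.1% and 94.1%. The groups overlapped, and the lowest value again belonged to IV1. Of the 16 tiles over Tet3, 15 had a mean over 80%, and the remaining tile, which spans the 5′ end of the gene, had a mean of 51.0%. Exons were at 93.7% ± 3.08 and introns, here with the island, at 91.1% ± 3.06, with exons higher in 11 of 16 libraries.

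**Figure D2:**
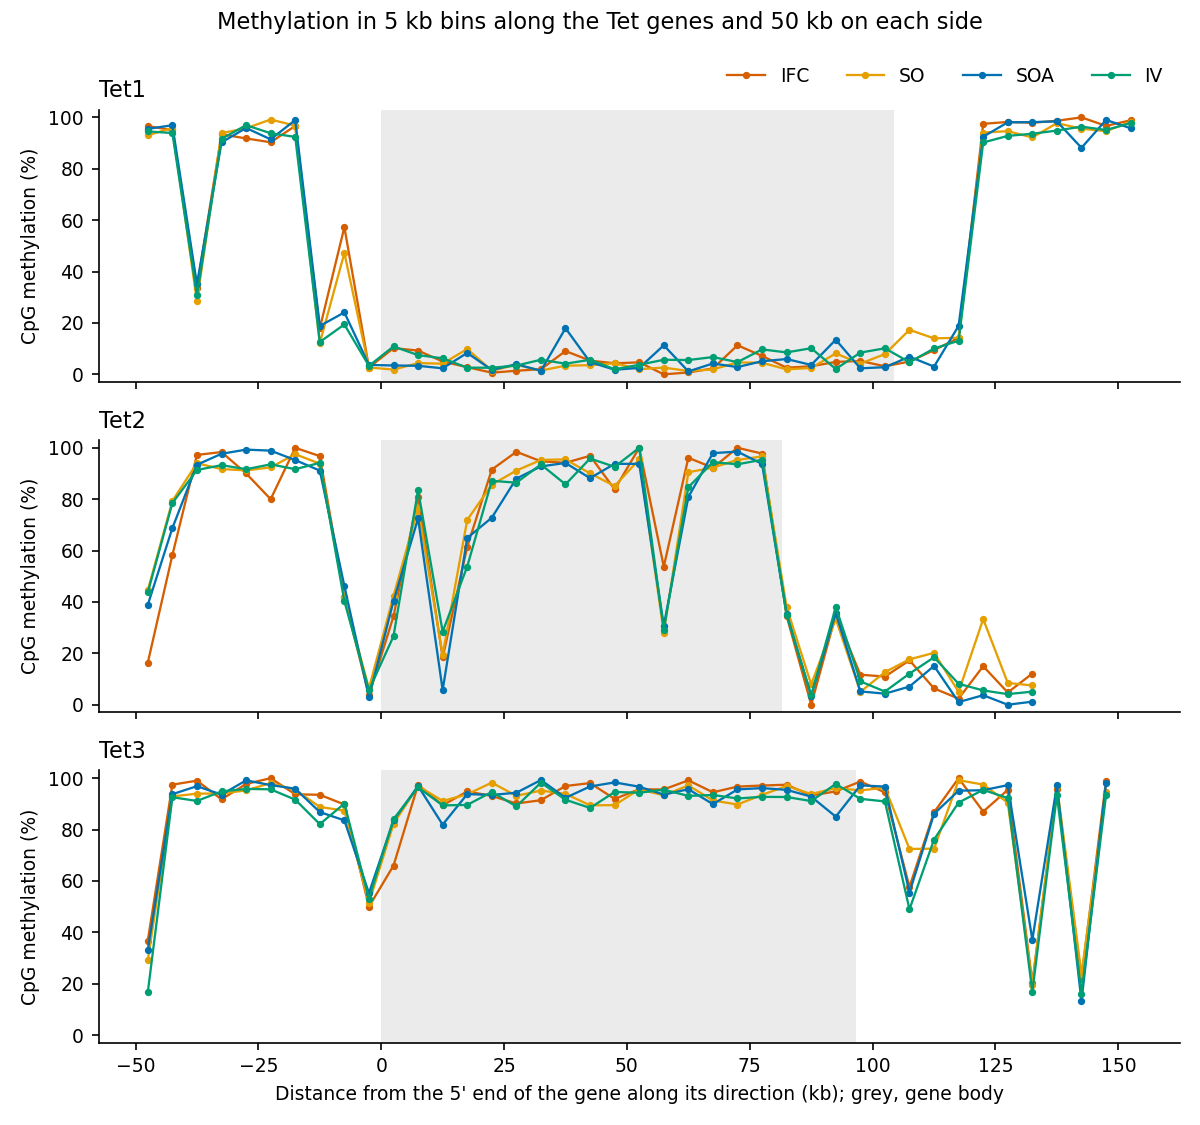
Mean CpG methylation (%) of each group in 5 kb bins along Tet1, Tet2 and Tet3 and 50 kb on each side, against the distance from the 5′ end of the gene (kb). Lines are groups and the grey band is the gene body; Tet1 lies in an unmethylated stretch, Tet2 drops at its 5′ end and at 10 to 15 and 55 to 60 kb inside the gene, and Tet3 is high except around its 5′ end.

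Gene body levels were compared in 4 pairs of groups: IFC against SO for growth in culture against growth in the ovary at the same labelled age, SO against SOA for sexual maturity, SOA against IV for hormonal stimulation of adults, and IFC against SOA for culture against superovulated adults. SO takes part in 2 of these comparisons and SOA in 3, so that they share libraries. The main test was a likelihood-ratio test of a logistic model of the calls across all protein-coding gene bodies, with Benjamini-Hochberg adjustment and a threshold of 0.05. It treats calls as independent, although the spread between libraries exceeded that, with a median dispersion over gene bodies of 2.74 to 3.42 times the binomial one. Beside it stands a two-sided exact permutation test of the absolute difference between the group means of the library percentages.

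Between IFC and SO, 0 of the 3 Tet gene bodies passed by the likelihood-ratio test, where 20.7% of all gene bodies tested did. Tet3 is counted here without its island. With the island included, as in the other whole gene bodies, Tet3 passed at -2.71 points for IFC minus SO (adjusted p = 0.00103) and at -2.49 points for IFC minus SOA (adjusted p = 0.000109), in the opposite direction to the remainder of the gene. The differences, IFC minus SO, were 0.913 points for Tet1 (SE 0.928), 4.08 points for Tet2 (SE 3.39) and 0.735 points for Tet3 (SE 1.02). The groups overlapped for each gene, and exact permutation p-values were 0.373, 0.254 and 0.476, where the smallest possible was 0.00794. Leaving out 1 library, Tet1 passed the likelihood-ratio test without SO4, and Tet2 passed it without IFC3 or without SO3. Over all fits that left out 1 library, the Tet2 difference ran from 2.10 to 6.55 points. Between SO and SOA, 1 of 3 passed, where 25.7% of all gene bodies did: Tet2 was at 69.1% ± 4.24 in SO and 64.1% ± 2.48 in SOA, a difference of 5.01 points (SE 2.41, likelihood-ratio adjusted p = 0.00799, exact permutation p = 0.103). The call was absent without SO3, without SO5 or without SOA4 (differences of 3.93, 3.77 and 4.75 points), and among the 2 SO and 3 SOA libraries under 10000000 calls the difference was 1.84 points. Between SOA and IV, 1 of 3 passed, where 26.4% of all gene bodies did: Tet1 was at 4.68% ± 2.20 in SOA, against 6.04% ± 4.56 in IV, a difference of -1.37 points (likelihood-ratio adjusted p = 0.000815, exact permutation p = 0.657). Its dispersion was 16.6, and without IV1 the difference was 1.24 points in the opposite direction (adjusted p = 0.778). It also did not pass without SOA4, at -0.852 points. Tet2 differed by -4.53 points, SOA minus IV, and did not pass (adjusted p = 0.115), although the 2 groups did not overlap (exact permutation p = 0.0571, smallest possible 0.0286). Without IV1 this difference was -4.61 points. Between IFC and SOA, 1 of 3 passed, where 30.4% of all gene bodies did: Tet2 was at 73.2% ± 5.95 in IFC, 9.09 points above SOA (SE 3.23, likelihood-ratio adjusted p = 4.99e-05, exact permutation p = 0.0571, smallest possible 0.0286). Tet3 outside its island differed by at most 0.912 points in any of the 4 comparisons with all libraries. Its SOA minus IV difference was 0.0493 points, and without IV1 it was -1.78 points, in the opposite direction and with no call. With the further limit of 20 points, 0 of 3 gene bodies were called in any comparison, where 0.911%, 1.31%, 0.764% and 2.64% of all gene bodies were. None of these calls passed when the same data were tested with a quasi-binomial F test or with limma (0 of 3 in each comparison). Of all gene bodies, the F test called 2, 43, 0 and 181 in the 4 comparisons and limma 14, 96, 0 and 237.

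Cultured oocytes stood apart at the island near the 5′ end of Tet3. In IFC, the island was methylated at 78.6%, 56.7%, 60.6% and 76.7%, from 30 to 110 covered positions per library. The SO libraries were at 97.4%, 96.2%, 99.3%, 100% and 94.6%, from 26 to 67 positions. SOA2, SOA3 and SOA4 were at 96.0%, 100% and 95.4%, while SOA1 was at 88.2% but had 17 positions, under the minimum of 20 set for the island. IV1 was at 76.7%, and IV2 and IV3 were at 95.5% and 94.5%. Every IFC library was thus below every SO and every SOA library, SOA1 included, and IV1 was the only library of the other 3 groups within the IFC range.

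The island mean was 68.2% ± 11.1 (SD, n = 4) in IFC and 97.5% ± 2.22 (n = 5) in SO, a difference of -29.3 points. The two-sided exact permutation test gave p = 0.00794, the smallest possible, and 0.0317 after adjustment over the 4 comparisons. Of 6813 start windows with at least 20 covered positions, 1.61% had every IFC library below every SO library. Against SOA (97.1% ± 2.502, n = 3), the difference was -29.0 points, with an exact permutation p of 0.0286, the smallest possible, and 0.0571 after adjustment, so that it did not pass. Of 3079 start windows with at least 20 covered positions in every library of both groups, 2.5% had every IFC library below every SOA library. That share is over 4 SOA libraries, whereas the island value used 3, so that the designs are unlike. SO and SOA differed by 0.337 points (exact permutation p = 0.839). SOA and IV (88.9% ± 10.6, n = 3) differed by 8.26 points (exact permutation p = 0.2, smallest possible 0.1), and by 2.15 points without IV1. The island had been set apart with earlier results of these data known, so that its test is not independent evidence.

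All 4 IFC libraries were shallow, and the comparison with the shallow libraries alone gave a difference of -28.6 points for IFC minus SO (2 SO libraries) and -29.8 points for IFC minus SOA (2 SOA libraries), designs that could not pass the threshold. Leaving out any 1 library gave -32.8 to -25.5 points for IFC minus SO, with adjusted p of 0.0571 to 0.0714, each at the smallest exact p that its size allowed. The island had 334 calls in IFC, 259 in SO and 344 in IV. When calls were merged over a group, 151 of the 173 CpGs were covered in IFC, of which 76 had methylated calls only, 20 unmethylated calls only and 55 both. In SO, 115 of 121 covered CpGs had methylated calls only, 2 unmethylated calls only and 4 both, and in SOA, here with the calls of SOA1, these numbers were 88, 3 and 3 of 94. In IV, 123 of 162 covered CpGs had methylated calls only, 3 unmethylated calls only and 36 both, and without IV1 they were 100, 1 and 6 of 107. Merged over its libraries, IFC thus had CpGs with both kinds of call and CpGs read only as unmethylated, at a mean of 2.21 calls per covered CpG. These merged counts do not show whether a CpG was partly methylated within a library or differed between libraries.

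Along the first kilobases of Tet3, methylation went from low values at the 5′ end to over 90%, and IFC was the lowest group in each bin from 500 to 3000 bases inside the gene. In bins of 500 bases, over the positions of all libraries of a group, IFC was at 10.3% from 500 to 1000 bases inside the gene, 16.7% from 1000 to 1500 (6 positions), 39.5% from 1500 to 2000, 65.5% from 2000 to 2500, 75.8% from 2500 to 3000 and 95.2% from 3000 to 3500. SO was at 20.9%, 56.9%, 90.0%, 98.7%, 96.5% and 97.6% in the same bins. SOA had reached 100% from 1500 to 2000 bases (19 positions) and IV 96.2% (52 positions), or 95.7% without IV1. The interval from 1 to 2 kb, chosen after its values were seen and thus not tested, straddles the border of the island. There the IFC libraries were at 52.8%, 32.1%, 0% and 33.3%, from 5 to 18 positions. IFC and SO overlapped, since SO2, from 6 positions, was below IFC1. The remaining SO libraries were above every IFC library, but the value of SO4 came from 1 position. SOA2 was at 0% from 3 positions. Merged calls gave 35.5% in IFC, 77.1% in SO, 93.9% in SOA, against 92.5% in IV. IV1 was at 96.3% in this interval, near IV2 (96.6%) and IV3 (90.4%). Its low values lay further inside, from 2.5 to 3 kb, where it was at 59.9%, beside 94.4% in IV2 and 92.7% in IV3. In that interval, also chosen after its values were seen, IFC3 was at 38.9% and the other IFC libraries were at 90.0% to 91.3%.

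**Figure D3:**
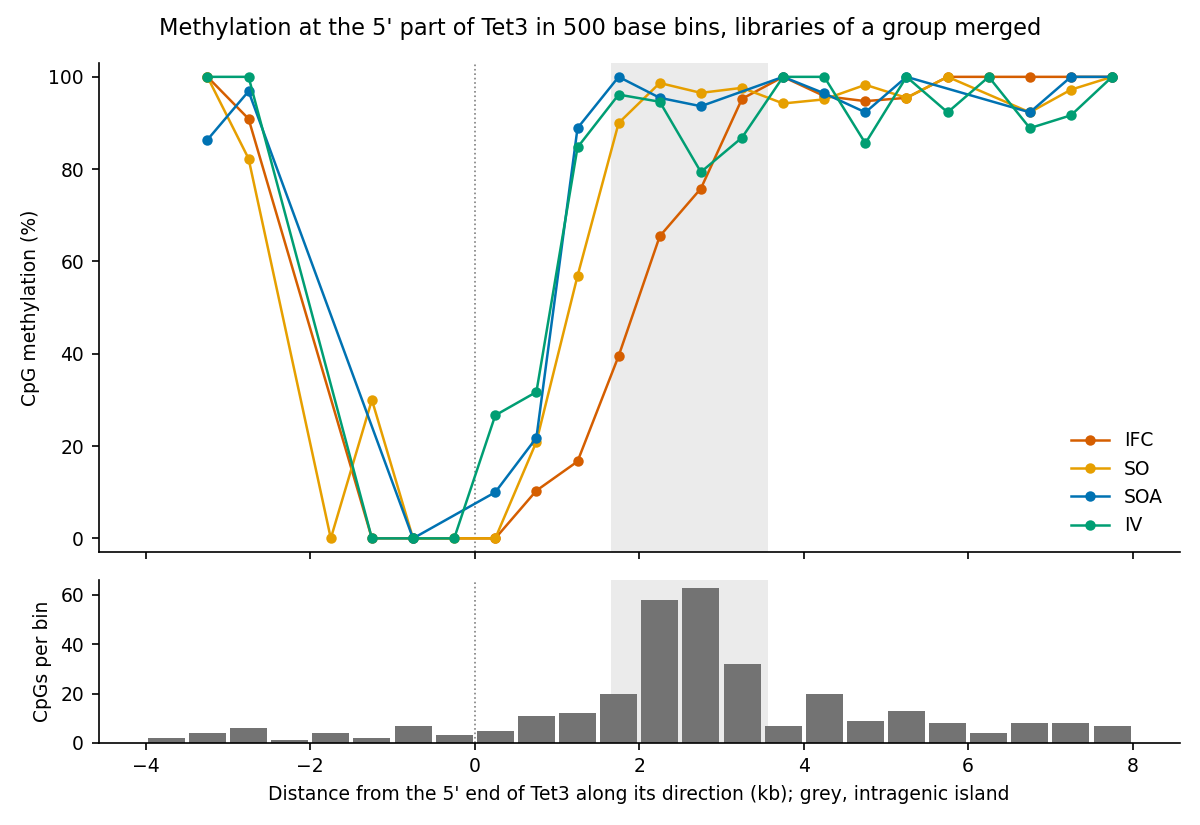
CpG methylation (%, mean over the covered positions of all libraries of a group) in bins of 500 bases around the 5′ end of Tet3, against distance (kb), with the number of reference CpGs per bin below; the grey band is the island, and bins with fewer than 5 covered positions in a group are left out. IFC is the lowest group in each bin from 0.5 to 3 kb inside the gene, at 39.5% from 1.5 to 2 kb against 90.0% in SO, and is at 95.2% from 3 to 3.5 kb.

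Whether the annotated starts themselves differed was asked of 2 kb windows. The 10 Tet1 starts were all low, with merged values of 0% to 17.6%. In the window of Tet1-207, the start of the RefSeq promoter shown above, calls merged over a group gave 0 of 88 methylated in IFC, which allows a share of up to 3.41%, 1.94% in SO, 2.54% in SOA, against 0.833% in IV. At the 5′ end of Tet2, 5 starts lie within 853 bases, so that their windows share most of their CpGs. The window of Tet2-201 was at 18.5% ± 8.98 in IFC, 28.8% ± 20.6 in SO, 30.03% ± 24.6 in SOA, against 16.6% ± 4.93 in IV, with single libraries from 7.69% (SO2) to 66.7% (SOA3, 9 positions). The inner Tet2 starts, from 64457 bases inside the gene on, lay mostly in methylated sequence: the first of them was at 95.8% in IFC, 96.6% in SO, 100% in SOA, against 90.2% in IV, from 24 to 51 merged calls.

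At Tet3, the furthest upstream start, Tet3-204, was low in all groups, at 7.27% in IFC, 10.7% in SO, 17.6% in SOA, against 16.2% in IV over 55 to 122 merged calls. The starts of Tet3-201, Tet3-202 and Tet3-205, which lie 17406 to 17452 bases inside the gene and share their CpGs, were in methylated sequence: the Tet3-201 window was at 95.4% ± 5.56 in IFC, 95.02% ± 6.99 in SO, 94.1% ± 5.29 in SOA, against 90.4% ± 6.51 in IV. The window of Tet3-203, which holds the island nearly entirely, was at 68.2% ± 11.2 in IFC, 97.5% ± 2.19 in SO, 95.01% ± 4.92 in SOA, against 89.0% ± 10.5 in IV.

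**Figure D4:**
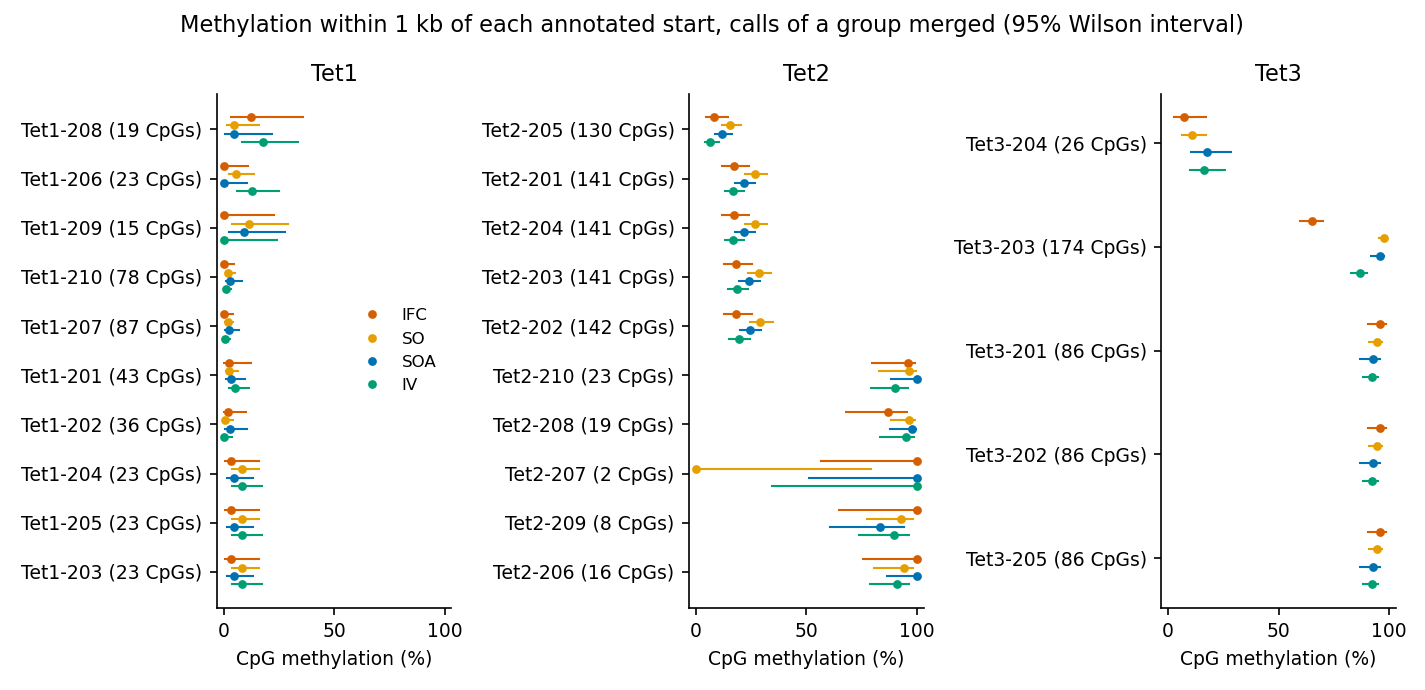
CpG methylation (%) within 1 kb on each side of each annotated start of Tet1, Tet2 and Tet3, ordered from the 5′ end of the gene, with calls of a group's libraries merged. Points are group values, lines are 95% Wilson intervals and the number of reference CpGs stands beside the name; Tet3-203 is the start at which the IFC interval (59.8% to 70.0%) lies apart from SO (95.1% to 99.0%), and the IV values include IV1.

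Of the windows with at least 5 covered positions in every library compared, 1 of 12 passed the likelihood-ratio test between IFC and SO, where 5.21% of all start windows did, 0 of 13 between SO and SOA (5.84% of all), 1 of 15 between SOA and IV (4.53% of all) and 1 of 13 between IFC and SOA (6.11% of all). In all 3 cases it was the window of Tet3-203. Between IFC and SO, 3 windows passed without IFC1 and 5 without SO4, and between IFC and SOA, 2 passed without IFC4. Shares of all start windows without these libraries are not given here, so that the changes are no result about the Tet windows. For Tet3-203, IFC minus SO was -29.3 points (adjusted p = 9.37e-24, exact permutation p = 0.00794) and IFC minus SOA -26.8 points (adjusted p = 3.70e-15, exact permutation p = 0.0286). This window holds nearly the same calls as the island, so that its test is not a second, independent result. The SOA and IV call (6.01 points, adjusted p = 0.0163, exact permutation p = 0.371) rested on IV1, without which the difference was -0.0330 points, and it was also absent without SOA4 (5.84 points). Under the quasi-binomial F test, 0 Tet windows passed in any comparison, and the adjusted p of the Tet3-203 window was 0.181 for IFC against SO and 0.171 for IFC against SOA. The share of all start windows passing this test is not given here. Of all gene bodies it called 2, 43, 0 and 181 in the comparisons as listed above, so that 0 among few windows is no result about them.

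In the 38 tiles of 100 CpGs over the 3 genes, 2 passed between IFC and SO, where 4.46% of all tiles did, 4 between SO and SOA (9.0% of all), 1 between SOA and IV (6.46% of all) and 5 between IFC and SOA (11.4% of all). The tiles tested numbered 37, 37, 38 and 38, and none of those called was over Tet1. Leaving out 1 library gave 1 to 3 between IFC and SO, 2 to 5 between SO and SOA, 1 to 6 between SOA and IV and 2 to 5 between IFC and SOA. The share of all tiles without these libraries is not given here, so that the changes are no result about the Tet tiles. One tile also passed the limit of 20 points, in the comparison of IFC with SOA. Of all tiles tested, 1.12% passed it between IFC and SO, 1.87% between SO and SOA, 0.350% between SOA and IV and 3.83% between IFC and SOA. The tile spans the 5′ end of Tet3 (chr6:83456714-83461440, from -2356 to 2370 bases relative to the 5′ end) and was at 29.1%, 32.5%, 37.2% and 48.6% in IFC and at 63.8%, 43.5%, 68.8% and 66.7% in SOA. IFC minus SOA was -23.8 points (adjusted p = 3.67e-07, exact permutation p = 0.0571), with 1 SOA library inside the IFC range. In the same tile SO was at 49.8% ± 11.4, which passed against IFC (IFC minus SO -13.0 points, adjusted p = 0.0279, exact permutation p = 0.0952) and against SOA (SO minus SOA -10.8 points, adjusted p = 0.0335, exact permutation p = 0.214). IV was at 59.1% ± 17.5, with IV1 at 39.2%, and at 69.02% ± 4.63 without IV1 (n = 2).

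The other tiles named here were chosen after their values were seen. In Tet2, the tile from 18105 to 29366 bases inside the gene was at 91.6% ± 7.73 in IFC, 90.1% ± 2.90 in SO, 77.8% ± 1.06 in SOA, against 82.1% ± 6.93 in IV. It passed between SO and SOA (12.2 points, adjusted p = 4.12e-05, exact permutation p = 0.00794, the smallest possible) and between IFC and SOA (13.8 points, adjusted p = 0.0357, exact permutation p = 0.0286). The tile from 57673 to 70380 bases passed between IFC and SO, at 83.6% ± 11.3 against 67.9% ± 14.8 (adjusted p = 1.55e-05, exact permutation p = 0.111), and between IFC and SOA (74.2% ± 5.80, a difference of 9.40 points, adjusted p = 0.00291, exact permutation p = 0.229). IV was at 61.2% ± 7.09 in this tile. The low segment from 55 to 60 kb is only in part inside this tile and otherwise in the preceding one, from 42314 to 57639 bases, which did not pass between IFC and SO (2.99 points, adjusted p = 0.299). In this segment, chosen after its values were seen and not tested, IFC libraries were at 66.0%, 28.0%, 52.8% and 68.2%, and the other 12 libraries at 15.8% to 53.3%. The groups overlapped there, through IFC2 and SO2. Near the 3′ end of Tet3, the tile chr6:83364996-83368245 was at 79.5% ± 15.7 in SOA and at 95.5% ± 3.13 in IFC, 96.9% ± 3.22 in SO and 98.0% ± 3.55 in IV, and it passed in all 3 comparisons that include SOA (adjusted p = 0.000295 to 0.0137, exact permutation p = 0.0238 to 0.114). Without IV1, SOA minus IV was -17.5 points in this tile (adjusted p = 0.0485, exact permutation p = 0.267, smallest possible 0.0667). Of the 2 remaining tiles that passed, that of Tet2 from 588 to 6635 bases did so between SO and SOA (63.3% ± 24.4 against 52.6% ± 16.2, adjusted p = 0.0115, exact permutation p = 0.484). The other lies wholly inside the Tet3 island (chr6:83455985-83456711, from 2373 to 3099 bases) and was at 82.9% ± 13.7 in IFC, 97.1% ± 3.45 in SO, 94.7% ± 7.88 in SOA, against 87.4% ± 11.6 in IV. It passed between IFC and SOA at -11.8 points (adjusted p = 0.000483, exact permutation p = 0.171), a smaller difference than the -29.0 points of the whole island, where SOA1 was not used. It was not tested against SO, in which a library had 2 covered positions there. Under the quasi-binomial F test and limma, 0 tiles over the Tet genes passed. Shares of all tiles under these tests are not given here. Both called few of all gene bodies, 0 to 181 per comparison by the F test and 0 to 237 by limma.

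Other genes of active demethylation were read from a list of 22. It includes Tdg, Smug1, Mbd4, Ung and Neil1 to Neil3 (DNA glycosylases), Apex1, Parp1, Xrcc1 and Lig3 (later base excision repair), and Gadd45a, Gadd45b and Gadd45g (repair adaptors). It also includes Hmces (a binder of abasic sites), Ogt, Cxxc4 and Cxxc5 (Tet partners), Dppa3 (a protector of maternal DNA), and Idh1 and Idh2 (sources of the Tet cosubstrate 2-oxoglutarate). By their means over the libraries, 7 were under 20%, 2 over 80% and 13 between. Tet3 without its island (92.6%) was thus higher than any of them, since Parp1, the highest, was at 84.4%. The list genes were taken whole, with any islands they hold.

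Between IFC and SO, 2 list genes passed as higher in IFC and 1 as lower, of 21 tested, where 20.7% of all gene bodies passed. Between SO and SOA, 3 were higher and 4 lower in SO, also of 21 (25.7% of all). Between SOA and IV, 2 were higher and 2 lower in SOA, of 21 (26.4% of all), and between IFC and SOA, 2 were higher and 3 lower in IFC, of 20 (30.4% of all). The median difference of the list was -0.244, -0.567, 1.02 and 0.930 points in the 4 comparisons, beside 0.619, -0.114, 0.808 and 0.490 points over all gene bodies. One gene also passed the limit of 20 points: Ung, a uracil glycosylase, was at 43.1% ± 5.26 in SO and 63.7% ± 9.95 in SOA (adjusted p = 0.000116, exact permutation p = 0.00794), where 1.31% of all gene bodies passed this limit. Ung also had the largest difference of the list between SOA and IV, where it passed at 16.1 points above IV (adjusted p = 0.00445, exact permutation p = 0.0857), and at 19.5 points without IV1 (adjusted p = 0.00175, exact permutation p = 0.133). In IFC it was at 50.8% ± 18.7 and did not pass against SO or SOA. Dppa3, which protects maternal DNA from Tet3 in the zygote, had the largest difference between IFC and SO, at 33.4% ± 11.5 against 46.2% ± 11.9, and did not pass (adjusted p = 0.0698), and against SOA (50.9% ± 15.4) it passed with a difference of -17.5 points (adjusted p = 0.000867, exact permutation p = 0.143). Tdg, which excises the final oxidation products of Tet enzymes, was at 28.4% ± 8.18 in IFC, 23.2% ± 4.87 in SO, 15.3% ± 10.4 in SOA, against 13.8% ± 3.21 in IV, and it passed in the 3 comparisons among the first 3 groups (exact permutation p = 0.114 to 0.270). Apex1, the endonuclease that acts after the glycosylases, was 18.2 points higher in SO than in SOA (adjusted p = 0.000825, exact permutation p = 0.127) and -9.81 points for SOA minus IV, where it did not pass, with or without IV1 (-13.2 points, adjusted p = 0.134). Hmces, which binds abasic sites, was 9.29 points higher in SO than in SOA and passed with an exact permutation p of 0.00794. Neil3, a glycosylase, was 8.78 points higher in SOA than in IV (adjusted p = 0.0170, exact permutation p = 0.0857) and did not pass without IV1 (8.30 points, adjusted p = 0.0778), and Neil1, at 71.1% in IFC and 63.8% in SO, did not pass. Without IV1, the number of list genes passing between SOA and IV was 2 in place of 4 (Ung and, not among those 4, Smug1), and without SOA2 it was also 2. Shares of all gene bodies without these libraries are not given here, so that the changes are no result about the list. None of the list passed the quasi-binomial F test or limma, which called few of all gene bodies (0 to 181 and 0 to 237 per comparison).

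The gene bodies that varied most like each Tet gene over the 16 libraries were sought among 5382 genes with at least 100 covered positions in every library. For Tet1 they were Sorcs1 (Pearson r = 0.927, Spearman rho = 0.726), Gm10717 (r = 0.925, rho = 0.768) and Crim1 (r = 0.915, rho = 0.80). Without SOA2 and IV1, the 2 libraries farthest from the median of Tet1, r was 0.728, 0.774 and 0.821. For Tet2 they were Carm1 (r = 0.752), Csnk1g3 (r = 0.737) and Gpc1 (r = 0.711), with r of 0.470, 0.504 and 0.413 without IFC1 and IFC4. For Tet3 they were Ecpas (r = 0.781), Numb (r = 0.770) and Arhgef18 (r = 0.768), with r of 0.676, 0.683 and 0.554 without SOA1 and IV1. These values describe the closest of many genes, and the libraries share group and depth, so that no p is given.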

How the data were processed

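PBAT libraries of MII oocyte pools were trimmed with Trim Galore 0.4.4 (cutadapt 1.9.1), mapped to GRCm38 with Bismark 0.19.0 and deposited by the authors as methylated and unmethylated call counts and a methylation percent for each covered cytosine of a CpG. Counts were used. The labels' extraction text describes a blastocyst, whereas the samples are labelled oocytes. Mapping to C57BL/6J may read CBA variants that remove a C as unmethylated in all groups alike.

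A region's value in a library was the mean percentage over its covered positions (at least 5, or 20 for the Tet3 island). Groups were taken from the labels. Calls in protein-coding gene bodies, in windows of 1 kb on each side of GENCODE M21 starts and in tiles of 100 CpGs were compared by a logistic likelihood-ratio test with Benjamini-Hochberg adjustment over each whole table (threshold 0.05, and 20 points as a further limit), beside two-sided exact permutation tests over libraries. Scripts used Python 3.11.15, numpy 2.4.6, scipy 1.17.1, pandas 2.3.3, matplotlib 3.10.9, and limma 3.58.1 in R 4.3.3, and were tested on simulated data. Libraries held 5218053 to 23065411 calls.

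The members, the lists and the island were chosen with earlier results of these data known. A member of the list of demethylation genes is counted in its totals and is not reported here. Named were the Tet genes, list genes called with 20 points or among the 3 largest differences of a comparison, the 3 most alike genes of each Tet gene, and Tet tiles called with 20 points. The alternatives were summed calls, centring on the mean gene body, reference CpGs only, thinning to the shallowest library, at least 3 calls per position, exclusion of start windows, other window, tile and coverage settings, shallow or deep libraries only, a quasi-binomial F test, limma, a replicate block and leaving out each library. For the island, a minimum of 5 positions and a likelihood-ratio test of its calls were chosen after seeing the data. Same-numbered libraries of different groups did not deviate together (15 pairs, correlations -0.0142 to 0.0676).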

Additional observations from a re-analysis of the deposited data

Results flagged for a closer look

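Of 47 groups of 4 or 5 libraries examined for a library far from the others, 6 held one, and chance alone flags about 1 in 20 groups of untied values. In 4 of the 6 the other libraries were tied at 0%, where this rate does not hold. In the window of the Tet1 start 21484 bases inside the gene, SOA4 was at 4.23% and the other SOA libraries at 0%, and in the overlapping window of Tet1-207 SOA4 was at 3.90% and the others at 0%. In the window of Tet1-202, IFC2 was at 5.88% and SO1 at 8.33%, where the other libraries of their groups were at 0%. In the windows of Tet2-201 and Tet2-204, which hold the same covered positions, SOA3 was at 66.7% from 9 positions, and the nearest SOA library was at 21.7%.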

How the results depend on the processing

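Differences in percentage points are given in the order of the groups named. Counts of members called under an alternative setting, given without the share of all features under it, are no result about the members. With the quasi-binomial F test and limma, the Tet1 difference of SOA minus IV (-1.37, adjusted p = 0.886 and 0.931) and the Tet2 differences of SO minus SOA (5.01, adjusted p = 0.543 and 0.588) and IFC minus SOA (9.09, adjusted p = 0.226 and 0.312) did not pass. Under the F test the Tet3-203 window did not pass for IFC minus SO (-29.3), SOA minus IV (6.01) or IFC minus SOA (-26.8), with 0 start windows called, and under both tests 0 tiles and 0 list genes were called in each comparison. Over all gene bodies the F test called 2, 43, 0 and 181 in the 4 comparisons and limma 14, 96, 0 and 237, against 3867, 4718, 4943 and 5596, and positions with at least 3 calls gave 72, 97, 173 and 118. Thinned libraries gave 2252, 2794, 2681 and 3624, and exclusion of start windows 1563, 2482, 2398 and 3127. At an unadjusted p under 0.05 the F test had 1471, 1940, 934 and 2541 gene bodies and limma 1472, 1798, 959 and 2102.

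With the replicate block, whose numbers do not pair the libraries, a library with no same-numbered partner adds nothing to a difference. Tet1 SOA minus IV was -0.852 and Tet2 SO minus SOA was 3.77, both without a call, and leaving out only SOA4 and only SO5, respectively, gave the same differences, also without a call (adjusted p = 0.222 and 0.0521), so that the block and the missing library cannot be told apart. In the same fits, the island difference of IFC minus SOA was -32.5 and passed by the test of its calls (adjusted p = 2.25e-11), as in the unblocked test of calls, and tiles called were 1 for IFC against SO and 3 for SOA against IV. Tet2 SO minus SOA also missed the threshold with thinned libraries (3.29), outside start windows (2.92) and in shallow libraries (1.84). The deep libraries hold 1 SOA library, SOA4, so that their differences with SOA have no replicate check on that side. Tet1 changed sign for SO minus SOA in deep libraries (0.651) and for IFC minus SOA outside start windows (0.254). Tet3 outside its island changed sign for IFC minus SO in shallow libraries (-1.21), for SO minus SOA with summed calls (-0.00931), thinning (-0.350) or deep libraries (-0.620), and for SOA minus IV with reference CpGs (-0.381), thinning (-0.613) or deep libraries (-0.447). With the island included, Tet3 was -2.71 for IFC minus SO (adjusted p = 0.00103) and -2.49 for IFC minus SOA (adjusted p = 0.000109), both passing.

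The island difference of IFC minus SO was -28.9 with thinning and -28.6 in shallow libraries, designs in which adjusted p did not reach 0.05, and that of SO minus SOA changed sign (-2.09 and -1.24). The likelihood-ratio test of the island's calls passed for SOA minus IV (8.26, adjusted p = 0.000284; without IV1 2.15, adjusted p = 0.521, no call) and IFC minus SOA (-29.0, adjusted p = 5.05e-17). In windows of 2 kb on each side, the start windows called were 1 for SO against SOA, 0 for SOA against IV and 2 for IFC against SOA, and the Tet3-203 difference was -0.0804 for SO minus SOA and 1.56 for SOA minus IV. With at least 20 positions, 0 start windows were called for SOA against IV and 0 for IFC against SOA, since the Tet3-203 window then had too few positions in SOA1, and tiles called were 2 for SO against SOA, 0 for SOA against IV and 2 for IFC against SOA. A grid shifted by 50 CpGs gave 2, 2 and 2 tiles in the same comparisons.

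Leaving out 1 library, the Tet1 difference ran from 0.246 to 1.501 for IFC minus SO (passing without SO4), from -2.11 to -0.522 for SO minus SOA (passing without SO4), from -2.96 to 1.24 for SOA minus IV (no call without SOA4, opposite without IV1) and from -1.21 to 0.391 for IFC minus SOA (opposite without SOA2). Tet2 ran from 2.10 to 6.55 for IFC minus SO (passing without IFC3 or SO3) and from 3.77 to 5.93 for SO minus SOA (no call without SO3, SO5 or SOA4). Tet3 outside its island, with no call, ran from -0.330 to 1.18 for SO minus SOA and from -1.78 to 0.966 for SOA minus IV. The island ran from -32.8 to -25.5 for IFC minus SO and from -0.532 to 1.77 for SO minus SOA. The Tet3-203 window ran from -0.0330 to 9.31 for SOA minus IV. Start windows called ranged from 1 to 5 for IFC against SO (3 without IFC1, 5 without SO4), from 0 to 1 for SOA against IV (0 without SOA4) and from 1 to 2 for IFC against SOA (2 without IFC4). Tiles called ranged from 1 to 3 for IFC against SO (1 without IFC1, IFC2 or SO5), from 2 to 5 for SO against SOA (2 without SO3), from 1 to 6 for SOA against IV (2 without SOA1, SOA2 or SOA4, 6 without IV2, 5 without IV3) and from 2 to 5 for IFC against SOA (3 without SOA2, 2 without SOA4). List genes called ranged from 2 to 5 for SOA against IV (2 without SOA2 or IV1) and from 3 to 6 for IFC against SOA (3 without IFC3). The cause of these changes was not tested, apart from the smaller designs. The within-library differences of Tet1, Tet2 and Tet3 kept their sign and call under each alternative run. From 12 to 15 of the 25 start windows had at least 5 covered positions in every library compared.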

Other observations

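The 5 kb bin from 5 to 10 kb before the Tet1 gene (chr10:62913997-62918996, 27 CpGs), noticed after the values were seen and not tested, was at 57.3% ± 9.71 in IFC (n = 4), 47.2% ± 12.8 in SO (n = 5), 24.1% ± 11.8 in SOA, against 19.4% ± 18.3 in IV (n = 3). From 26 to 57 positions per group lay behind these values. The next bin outward, from 10 to 15 kb, was at 17.9% ± 12.9 in IFC, 12.1% ± 9.30 in SO, 18.8% ± 8.61 in SOA, against 12.6% ± 6.69 in IV.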
